A study of Mus musculus with 8 samples.

Results

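The mitochondrial genome transcripts of γδ T cells, the RNAs read from the cells' own mitochondrial DNA, were compared between mice on a ketogenic diet (KD) and mice on chow. They are the rows of the deposited gene table whose symbol begins with mt-, and there were 37 of them among 47729 genes. They comprised 13 protein-coding genes, 2 ribosomal RNA genes and 22 tRNA genes, all on chromosome M of GRCm38. Bulk RNA sequencing of polyA RNA was done on γδ T cells sorted from visceral adipose tissue of C57BL/6 mice. There were 4 KD samples, from mice that ate a fat-rich diet with very little carbohydrate for 1 week, and 4 control samples from mice fed chow over the same period. Samples carry the numbers 1 to 4 in each diet. The labels give neither age nor sex, and leave out whether RNA of several mice was pooled. The p-values thus cover only the spread between these samples, which may be technical.

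Mitochondrial DNA is a small circle that is transcribed from both strands into long RNAs, which are then cut into ribosomal RNAs, tRNAs and messenger RNAs, largely at the tRNAs that lie between the genes. Its messenger RNAs encode core subunits of respiratory complexes I, III and IV and of ATP synthase (complex V), the chain that oxidises fuel and makes ATP. All other subunits, and the enzymes that transcribe and process mitochondrial RNA, come from nuclear genes. Levels of mature mitochondrial RNAs therefore differ through processing and stability as well as transcription.

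Library totals ran from 19796112 to 26572315 counts in KD samples and from 23940797 to 31926427 counts in chow samples. Mitochondrial genes held between 188839 and 297240 of these counts per library. All 14 listed γδ T cell markers, among them Trdc and Cd3e, passed the count filter, and their summed level was 16018 to 16857 CPM (counts per library, brought to a common total with composition factors) in KD samples and 14923 to 15920 CPM in chow samples. edgeR called 0 of these 14, but 7 had an unadjusted p under 0.05, which 8.64% of all genes tested reached. Their median log2 fold change (KD minus chow) was 0.19, and 12 of 14 were positive, against 50.9% of all genes tested. RNA of vessel and connective tissue cells differed between libraries. The 13 endothelial markers summed to 56.0, 65.1, 537 and 953 CPM in KD samples 1 to 4 and to 166, 59.8, 62.3 and 81.2 CPM in chow samples 1 to 4. The 18 stromal and mesothelial markers summed to 78.2, 731, 609 and 718 CPM in KD samples and to 83.9, 54.9, 104 and 580 CPM in chow samples. edgeR called 0 of 10 tested endothelial markers, with 1 at an unadjusted p under 0.05. It called 3 of 15 tested stromal and mesothelial markers, all 3 higher in KD, with 7 at an unadjusted p under 0.05. Of all genes tested, 0.508% were called, 0.328% higher and 0.179% lower in KD, and 8.64% passed unadjusted. No marker of either list was at 0 in all libraries. In bulk samples, fewer cells of a type and less RNA per cell cannot be told apart.

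All 22 tRNA genes were listed at 0 in every library. Their genes are shown at their 2 extremes of length, since length is what they shared. In the plus-strand sequence of GRCm38, mt-Ts2 (a serine tRNA, chrM:11613-11671) has 59 bases and mt-Tl1 (a leucine tRNA, chrM:2676-2750) has 75 bases.
mt-Ts2: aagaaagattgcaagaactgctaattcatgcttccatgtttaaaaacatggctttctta
mt-Tl1: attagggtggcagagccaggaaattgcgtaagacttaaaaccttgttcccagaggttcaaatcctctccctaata
Dividing the deposited counts by the deposited FPKM (fragments per kilobase of gene, scaled to library size) gave an effective length 75 bases below the annotated length in 15 of 15 mitochondrial genes with counts, to within 0.5 bases. No tRNA gene is longer than 75 bases, so none had a positive effective length on this scale. Over the whole table, 1023 annotated genes had no transcript longer than 75 bases, and 1 of them had any count. The zeros therefore carry no information on tRNA abundance in either diet.

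The other 15 genes had counts in all 8 libraries, and all 15 passed the count filter. They lie close together on the circle. Among the 13 protein genes, 12 are on the plus strand and mt-Nd6 is on the minus strand. The reading frames of mt-Atp8 and mt-Atp6, both parts of ATP synthase, overlap by 43 bases at chrM:7927-7969 on the plus strand, where the start codon of mt-Atp6 and the stop codon of mt-Atp8 stand in capitals.
mt-Atp8 and mt-Atp6 overlap: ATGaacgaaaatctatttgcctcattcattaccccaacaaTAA
mt-Nd4l and mt-Nd4 share 7 bases of one strand, and mt-Nd5 and mt-Nd6 share 14 bases on opposite strands. These overlaps of 43, 7 and 14 bases are shorter than 76 bases, the read length that the FPKM imply. A read of that length therefore cannot lie wholly inside both genes of a pair. The sources used here do not say whether counting used strand. Of the 13 protein genes, mt-Co3, mt-Nd4 and mt-Cytb (3 genes) have lengths that are not whole codons, since their stop codons are completed by the poly(A) tail.

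Copies of mitochondrial DNA that were inserted into the nuclear genome share reads with these genes. In GENCODE M21 transcripts, 12 nuclear genes in the table shared at least 1 stretch of 76 bases with a mitochondrial gene, and 9 mitochondrial genes had such a copy. Of these 12 copies, 7 stand in a row on the minus strand of chromosome 1 between bases 24611535 and 24616197 (GRCm38), all annotated as unprocessed pseudogenes. The copies of mt-Nd4l, mt-Atp6, mt-Co2 and mt-Co3 in this row match their mitochondrial gene without a mismatch and stop short of its last bases. The sequence of mt-Nd4l (complex I, chrM:9877-10173, plus strand) is shown whole because its reads decide the values below, with the bases that its copy Gm10222 lacks in capitals.
mt-Nd4l: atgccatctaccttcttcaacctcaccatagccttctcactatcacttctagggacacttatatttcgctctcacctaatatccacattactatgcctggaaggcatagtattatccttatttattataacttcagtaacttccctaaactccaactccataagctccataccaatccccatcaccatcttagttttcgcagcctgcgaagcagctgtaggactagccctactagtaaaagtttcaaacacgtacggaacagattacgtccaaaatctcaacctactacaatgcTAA
The end of mt-Atp6 (chrM:8518-8607, plus strand) shows the same for the copy Gm10925 (chr1:24613974-24614651), whose 678 bases are all identical to mt-Atp6.
mt-Atp6 end: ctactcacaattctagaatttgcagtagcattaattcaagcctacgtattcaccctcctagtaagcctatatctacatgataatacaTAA
Of the 606 windows of 76 bases in mt-Atp6, 3 are absent from Gm10925. Likewise 3 of 222 windows of mt-Nd4l are absent from Gm10222, 3 of 609 windows of mt-Co2 from Gm28661, 1 of 709 windows of mt-Co3 from Gm28437 and 6 of 273 windows of mt-Nd3 from Gm28438. A copy of the end of mt-Co1, Gm29216, has 6 mismatches in 492 aligned bases. Counted from the first base of mt-Co1, with the mitochondrial base first, they are T1056A, C1057T, A1059G, A1060G, C1062A and A1066T, all at the start of the copy (minus strand, chr1:24616158-24616197), where the differing bases stand in capitals beside the matching stretch of mt-Co1 (plus strand, chrM:6381-6420).
mt-Co1 part: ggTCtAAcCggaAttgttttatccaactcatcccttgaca
Gm29216 start: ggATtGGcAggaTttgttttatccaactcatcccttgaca
The remaining mitochondrial genes with counts, mt-Rnr1, mt-Rnr2, mt-Nd1, mt-Atp8, mt-Nd6 and mt-Cytb, shared no such window with a nuclear gene of the table.

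The estimated counts divided these shared reads unevenly between libraries. Of the reads assigned to mt-Atp6 or Gm10925, the copy held 37%, 34.8%, 41.7% and 51.1% in KD samples 1 to 4 and 21.7%, 30.2%, 38.0% and 29.3% in chow samples 1 to 4. Other copies took a part that differed by copy and library. Gm28661 held 13.5% and 22.3% of its pair with mt-Co2 in KD samples 1 and 4, against 3.89% and 0.265% in chow samples 1 and 4, and had under 1 count in the other 4 libraries. Gm28437 held at most 1.98% of its pair with mt-Co3, and the less similar Gm13340 and Gm13341 at most 0.0228% and 0.0254% of their pairs with mt-Co1 and mt-Co2. Gm28438 held 48.5% of its pair with mt-Nd3 in KD sample 3 and was at 0 in the other 7 libraries. Gm10222 held 33.5% of its pair with mt-Nd4l in chow sample 1 and was at 0 in the other 7. Gm29216 held 36.4% to 41.4% of its pair with mt-Co1 in all 8 libraries. Gm28439 shares 876 identical bases with mt-Nd4 and was at 0 throughout. The copies together held 17.3%, 15.3%, 15.3% and 19.8% of the mitochondrial counts with copies added in KD samples and 12.6%, 14.2%, 15% and 14.5% in chow samples. The lowest KD value, 15.3%, was only narrowly above the highest chow value, 15%. This share is set by the same uneven division of reads, and no background share is given for it. Because a count of a single member of such a pair depends on this division, values are given below as deposited and with each copy's counts added to its mitochondrial gene, a choice made after seeing the data. Transcripts of the copies themselves, if any, would be included in the sums.

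**Figure D1:**
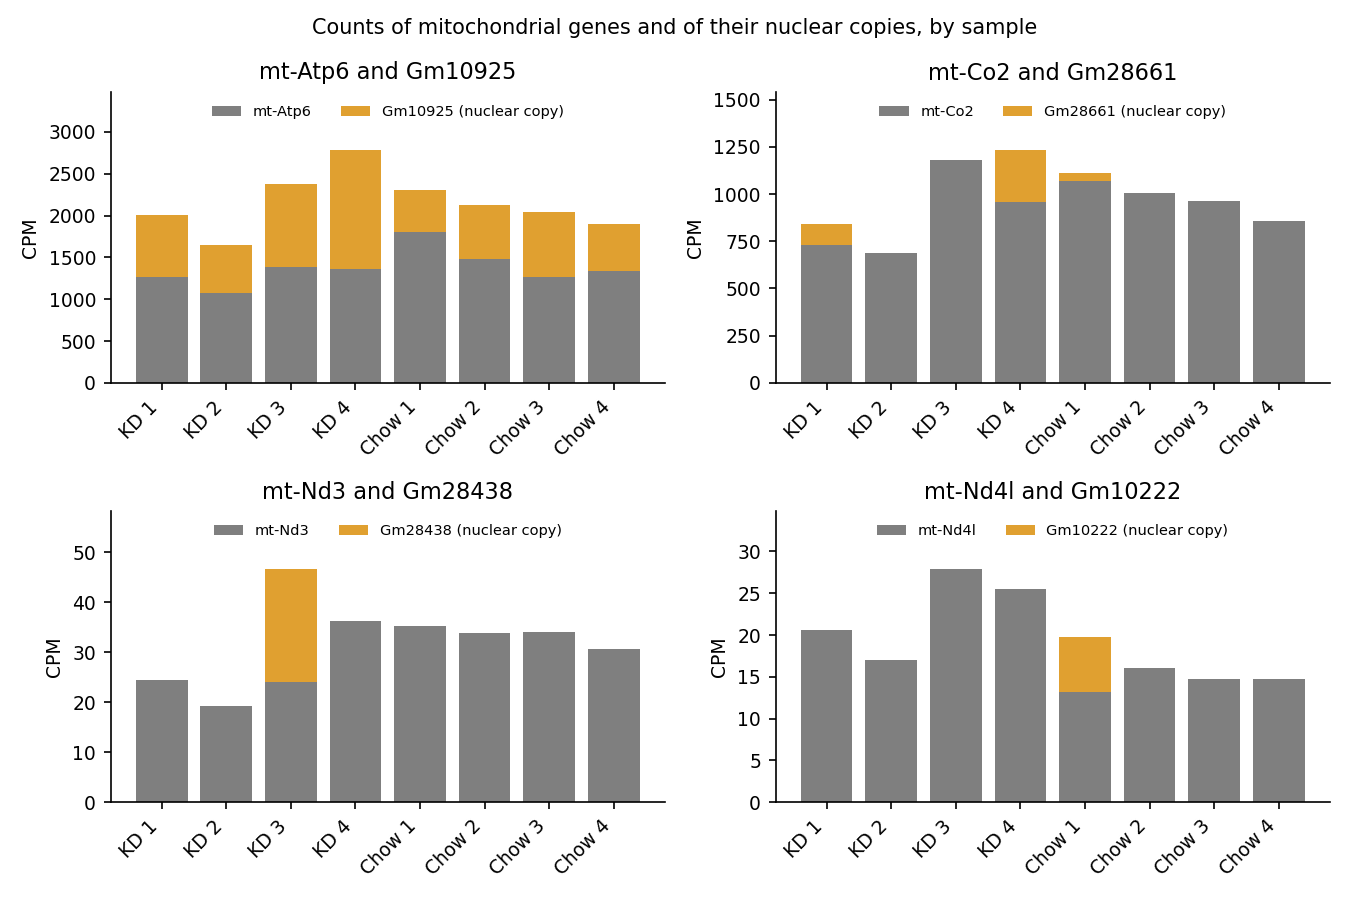
Stacked bars give CPM per sample, with KD samples left of chow samples, for 4 mitochondrial genes (grey) and their nuclear copies (orange). Gm28438 appears only in KD sample 3 and Gm10222 only in chow sample 1, while Gm10925 holds between 21.7% and 51.1% of its pair in every library.

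Per length, ATP synthase and complex IV transcripts were the most abundant. With copies added, mt-Atp6 averaged 3634 ± 795 FPKM in KD samples and 3448 ± 320 FPKM in chow samples (SD, n = 4 each). mt-Co3, a catalytic-core subunit of complex IV, averaged 2793 ± 618 FPKM in KD samples and 2523 ± 312 FPKM in chow samples. As deposited, mt-Co3 ranked 17 and mt-Atp6 ranked 25 among all genes by mean FPKM. The order with copies added was mt-Atp6, mt-Co3, mt-Co1, mt-Co2, mt-Atp8, mt-Nd1, mt-Cytb, mt-Rnr2, mt-Nd4, mt-Nd2, mt-Nd6, mt-Nd5, mt-Rnr1, mt-Nd3 and mt-Nd4l. Several neighbours did not keep their order in all 8 libraries. mt-Co1 was above mt-Co2 in 5 of 8 libraries, mt-Atp8 above mt-Nd1 in 6, mt-Cytb above mt-Rnr2 in 7 and mt-Nd2 above mt-Nd6 in 4. mt-Nd5, mt-Rnr1, mt-Nd3 and mt-Nd4l also changed places among themselves, while the other 7 neighbouring pairs kept their order in 8 of 8 libraries. Genes that overlap on the same strand stood far apart in this order. With copies added, mt-Atp8 and mt-Atp6 averaged 1115 and 3541 FPKM over all libraries, and mt-Nd4l and mt-Nd4 averaged 87.8 and 353 FPKM. The order is thus of values per annotated gene, and whether overlapping genes lie on separate RNAs was not tested. mt-Rnr1, the small ribosomal RNA, stood at 127 ± 41.3 FPKM in KD samples and 135 ± 35.8 FPKM in chow samples, and mt-Rnr2, the large ribosomal RNA, at 650 ± 183 FPKM in KD samples and 631 ± 122 FPKM in chow samples. The libraries were made from polyA RNA, so the 2 ribosomal RNAs are measured only as far as that selection kept them.

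**Figure D2:**
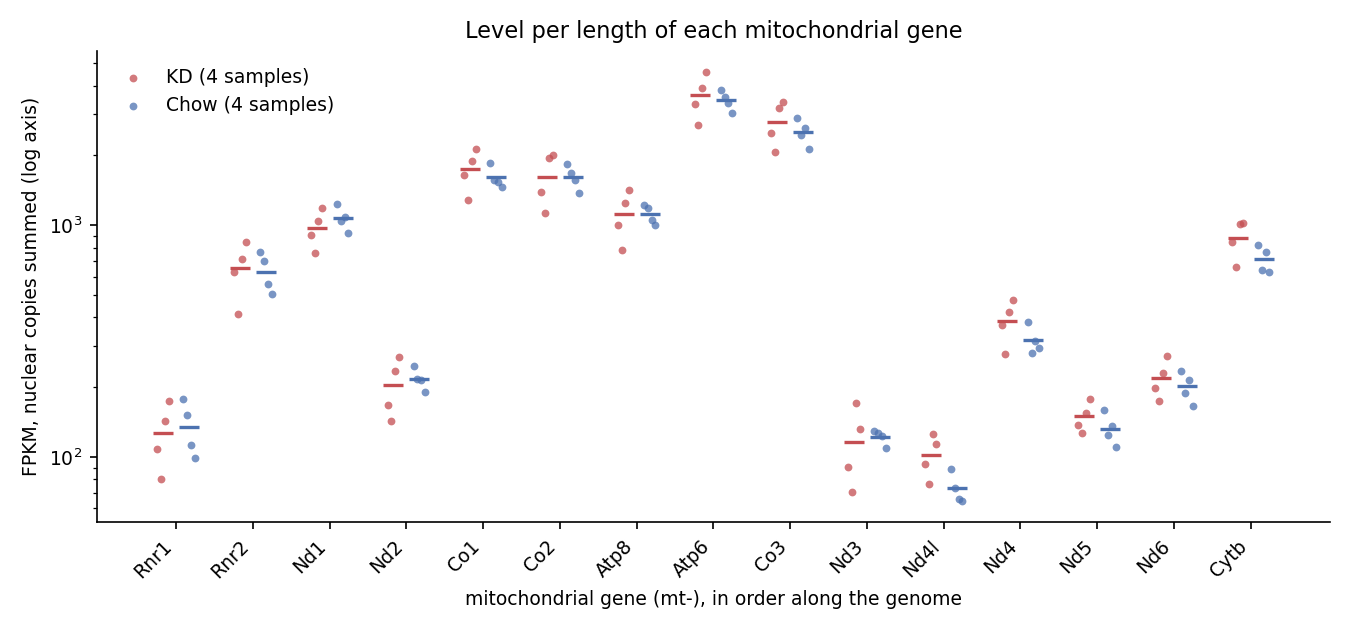
FPKM with nuclear copies summed (log axis) for the 15 mitochondrial genes in their order along the genome, 4 KD samples (red) left of 4 chow samples (blue), with bars at the means. Levels span from 64.8 FPKM for mt-Nd4l to 4568 FPKM for mt-Atp6, and the diets overlap for each gene.

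Mitochondrial genes held 0.906%, 0.737%, 1.12% and 1.18% of all counts in KD samples 1 to 4 (mean 0.984% ± 0.202, SD, n = 4) and 1.12%, 0.953%, 0.931% and 0.829% in chow samples 1 to 4 (mean 0.958% ± 0.120, SD, n = 4). The means differed by less than the spread within either diet. With copies added, the shares were 1.10%, 0.870%, 1.32% and 1.47% in KD samples and 1.28%, 1.11%, 1.10% and 0.970% in chow samples. Ribosomal RNAs made up 9.37% to 12.2% of mitochondrial counts in KD samples and 10% to 12.4% in chow samples.

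No mitochondrial gene was called between the diets by edgeR's quasi-likelihood test (two-sided, Benjamini-Hochberg adjusted p under 0.05 over all 13397 genes tested), in which 68 genes passed, 44 higher and 24 lower in KD. The background share of called genes was 0.508%, so 0 of 15 is near it. At an unadjusted p under 0.05 there was 1 mitochondrial gene of 15, mt-Nd4l, where the background was 8.64%. DESeq2 called 0 of 15, with 2 at an unadjusted p under 0.05, where it called 2.18% of all genes and 10% passed unadjusted. limma on log2 of FPKM plus 1 called 0 of 15, with 3 at an unadjusted p under 0.05, where it called 0.941% of all genes and 10.5% passed unadjusted. The median log2 fold change (KD minus chow) was 0.04 over the 15 genes, 8 of them positive, and 0.01 over all genes tested, 50.9% of them positive. With copies added, edgeR again called 0 of 15, with 1 at an unadjusted p under 0.05 (background 8.65%), a median of 0.07 and 9 positive. The CPM values of the diets did not overlap for 1 of 15 genes as deposited, against 6.05% of all genes tested, and for 0 of 15 with copies added, against 6.02%.

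mt-Nd4l, a small membrane subunit of complex I, had the largest difference of the 15. As deposited it had 20.6, 17, 27.9 and 25.5 CPM in KD samples 1 to 4, against 13.2, 16.0, 14.7 and 14.7 CPM in chow samples 1 to 4. All KD samples were above all chow samples, and the log2 fold change was 0.63 (SE 0.21, adjusted p = 0.369, edgeR). With Gm10222 added, chow sample 1 had 19.8 CPM, above the 16.9 CPM of KD sample 2, and the log2 fold change was 0.48 (SE 0.21, adjusted p = 0.576, edgeR). The separation of the diets thus rested on the reads that 1 chow library gave to the copy.

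Among the other complex I genes, mt-Nd1 and mt-Nd2 were slightly lower on average in KD samples and mt-Nd4 and mt-Nd5 slightly higher, all within the spread. mt-Nd1 had 792, 671, 923 and 1053 CPM in KD samples and 1088, 899, 963 and 835 CPM in chow samples, a log2 fold change of -0.14 (SE 0.13). mt-Nd4 had 481, 361, 551 and 621 CPM in KD samples and 501, 360, 415 and 393 CPM in chow samples, a log2 fold change of 0.27 (SE 0.16). The diets overlapped for both genes. mt-Nd2 had a log2 fold change of -0.09 (SE 0.18), mt-Nd5 0.17 (SE 0.13) and the minus-strand gene mt-Nd6 0.12 (SE 0.16). mt-Nd3 had a log2 fold change of -0.36 (SE 0.20) as deposited and of -0.08 (SE 0.25) with Gm28438 added, since KD sample 3 held 24.0 CPM without its copy and 46.5 CPM with it.

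mt-Cytb, cytochrome b, is the only complex III subunit encoded in mitochondria and has no copy that shares a 76-base window. It had 898, 709, 1081 and 1092 CPM in KD samples and 878, 672, 826 and 687 CPM in chow samples. The ranges overlapped through KD sample 2, and the log2 fold change was 0.30 (SE 0.14, adjusted p = 0.604, edgeR).

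For complex IV, which passes electrons to oxygen, log2 fold changes with copies added were 0.11 (SE 0.14) for mt-Co1, -0.0025 (SE 0.17) for mt-Co2 and 0.14 (SE 0.15) for mt-Co3. mt-Co2 as deposited gave -0.13 (SE 0.16). For ATP synthase, mt-Atp8 had a log2 fold change of -0.01 (SE 0.17). mt-Atp6, part of the proton channel, turned direction with the treatment of its copy. As deposited it had 1266, 1071, 1387 and 1360 CPM in KD samples and 1808, 1482, 1268 and 1343 CPM in chow samples, and the log2 fold change was -0.22 (SE 0.12, adjusted p = 0.679, edgeR). With Gm10925 added it had 2009, 1635, 2378 and 2784 CPM in KD samples and 2313, 2126, 2048 and 1901 CPM in chow samples, and the log2 fold change was 0.07 (SE 0.14, adjusted p = 0.952, edgeR). The diets overlapped in both versions. The ribosomal RNAs had log2 fold changes of -0.09 (SE 0.25) for mt-Rnr1 and 0.04 (SE 0.20) for mt-Rnr2.

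**Figure D3:**
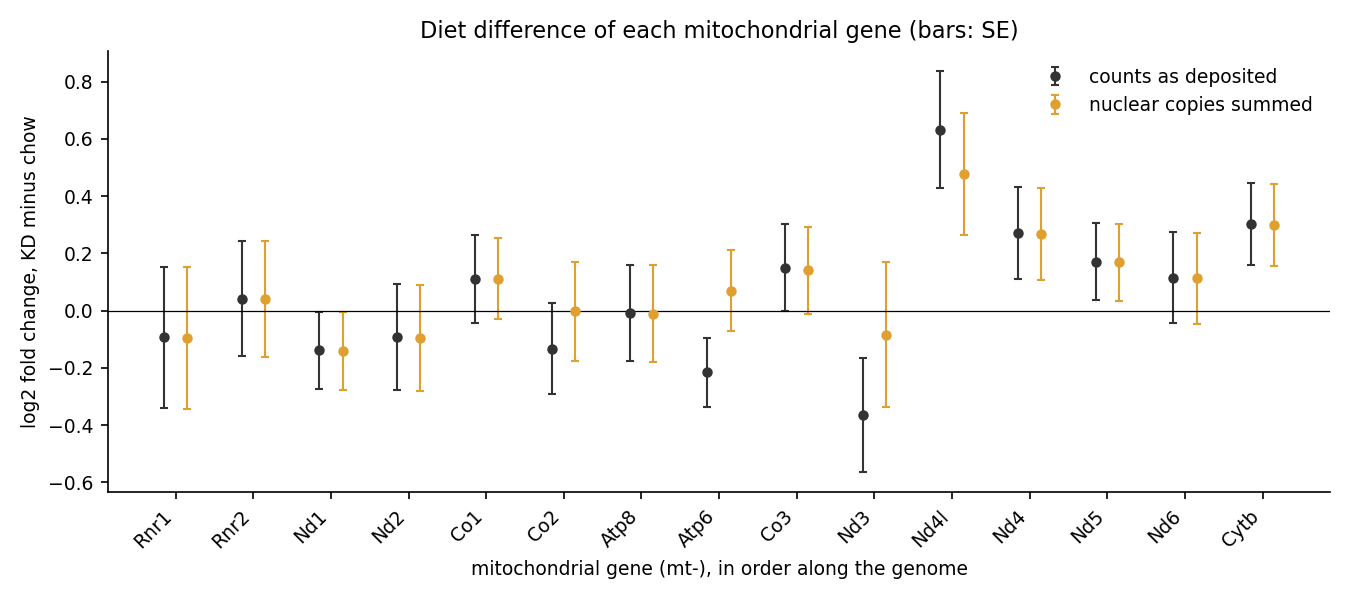
Log2 fold change, KD minus chow, for the 15 mitochondrial genes in genome order, from counts as deposited (black) and with nuclear copies summed (orange), bars giving the SE. mt-Atp6 lies at -0.22 as deposited and at 0.07 with copies summed, and mt-Nd4l is highest in both versions.

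The libraries of a diet ranked in much the same order for each mitochondrial gene. With copies added, KD sample 2 was the lowest KD sample for 15 of 15 genes, and KD sample 4 was the highest KD sample for 13. Chow sample 1 was the highest chow sample for 15 of 15 genes, and chow sample 4 the lowest for 12. The SD of CPM with copies added was larger in KD than in chow for 15 of 15 genes. KD samples 3 and 4, which between them held the highest KD value of each gene, also held the most endothelial marker RNA (537 and 953 CPM). Stromal and mesothelial marker RNA did not follow that order, at 78.2, 731, 609 and 718 CPM in KD samples 1 to 4. Among chow samples, sample 1 held the most endothelial marker RNA (166 CPM) and sample 4 the most stromal and mesothelial marker RNA (580 CPM). The part of these RNAs in the result was not tested. Since KD samples 3 and 4 held the highest KD values, and KD sample 2 the lowest, leaving out samples 3 and 4 lowers the KD mean of each gene by construction. The fall in log2 fold change is therefore not a separate result. Without KD samples 3 and 4, 12 of 15 mitochondrial genes had a negative log2 fold change, where 50.7% of all genes tested were negative. The median of the 15 was -0.29 as deposited and -0.20 with copies added. edgeR called 0 of 15 there, where 4 of 14418 genes passed (0.0277%), and 5 of 15 had an unadjusted p under 0.05, where the background was 6.60%. The 15 genes ranked the libraries much alike, so these counts are not 15 separate results. With the endothelial and stromal markers as a covariate, 11 of 15 were negative, where 51.6% of all genes were. That covariate, a mean log2 CPM, was 1.21, 3.05, 4.33 and 4.51 in KD samples 1 to 4. In chow samples 1 to 4 it was 1.39, 0.514, 0.780 and 2.42. It thus partly followed diet, and the fit cannot fully separate it from diet. In that fit 0 of 15 were called, where 0.0672% of all genes were, and 0 of 15 had an unadjusted p under 0.05, where 6.70% of all genes did.

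Ratios between mitochondrial genes within a library do not depend on library size, and some separated the diets although no single gene was called. These ratios were chosen after their values were seen and are given as a description. The ratio of mt-Cytb to mt-Nd1 counts, 2 genes without a copy, was 1.13, 1.06, 1.17 and 1.04 in KD samples 1 to 4, against 0.807, 0.748, 0.858 and 0.823 in chow samples 1 to 4. The lowest KD sample was thus above the highest chow sample. The ratio of mt-Nd4 to mt-Nd1 was 0.606, 0.538, 0.597 and 0.590 in KD samples, against 0.460, 0.400, 0.431 and 0.471 in chow samples. The ratio of mt-Nd5 to mt-Nd1 was 0.301, 0.332, 0.295 and 0.297 in KD samples, against 0.257, 0.237, 0.248 and 0.237 in chow samples. Neither ratio overlapped between the diets. Endothelial and stromal marker RNA differed between these libraries as given above, and its part in the ratios was not tested. The ratio of mt-Nd6 to mt-Nd5, genes on opposite strands, overlapped, at 0.347 to 0.389 in KD samples and 0.375 to 0.404 in chow samples. Whether counting used strand is not known, so RNA of either strand may be in the mt-Nd6 counts. This ratio therefore cannot be read as a comparison of the strands.

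**Figure D4:**
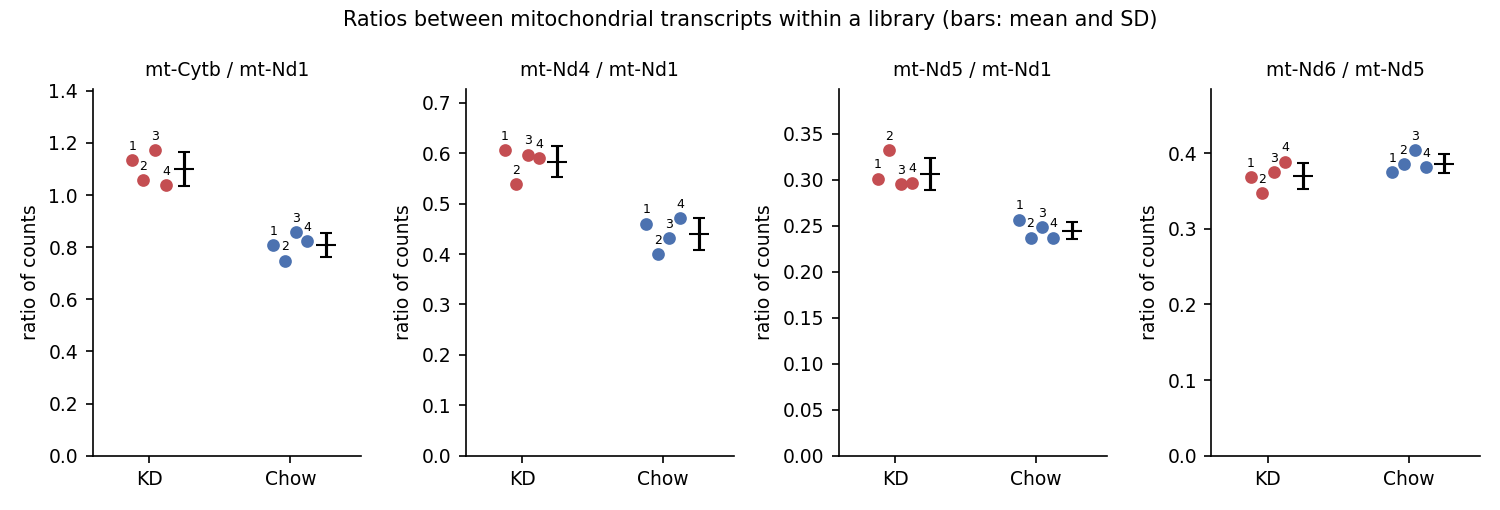
Ratios of counts within each library for 4 pairs of mitochondrial genes, KD samples (red) left of chow samples (blue), numbered by sample, with mean and SD beside them. The first 3 ratios, all to mt-Nd1, do not overlap between the diets, and the ratio of mt-Nd6 to mt-Nd5 overlaps.

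Counted over all pairs with copies added, 30 of 105 ratios between mitochondrial genes did not overlap between the diets. Among all pairs of tested genes with a count in every library, 5.63% did not overlap. The 105 ratios share 15 genes and are not independent of each other. The mitochondrial genes also ranked the libraries in much the same order, so pairs drawn over all genes are not a like background. mt-Nd1 was chosen as a denominator after the values were seen. Of the 14 ratios to mt-Nd1, 8 were higher in KD without overlap (mt-Co1, mt-Atp6, mt-Co3, mt-Nd4l, mt-Nd4, mt-Nd5, mt-Nd6 and mt-Cytb) and 0 were lower, while over all tested genes 3.58% of ratios to mt-Nd1 were higher in KD without overlap and 0.419% lower. As a percentage of mitochondrial counts with copies added, mt-Nd1 held 7.29%, 7.71%, 6.99% and 7.14% in KD samples and 8.49%, 8.26%, 8.72% and 8.41% in chow samples. mt-Nd2 was also lower in KD without overlap, and mt-Nd4 and mt-Nd4l were higher, so 4 of 15 genes had separate shares. As deposited, 5 of 15 did: mt-Nd1 and mt-Nd3 were lower and mt-Nd4l, mt-Nd4 and mt-Cytb higher in KD, while mt-Nd2 overlapped. Set against the same mitochondrial total, 2.39% of all tested genes with a count in every library did not overlap with copies added, and 2.56% as deposited. Most tested genes are not part of that total, while the mitochondrial genes make it up, so this is not a like background. Shares of a common total also move against each other and are not separate results. The background for ratios to mt-Nd1 has the same limit as that for pairs. With copies added, mt-Cytb, at 8.25%, 8.14%, 8.19% and 7.41% in KD samples and 6.85%, 6.18%, 7.48% and 6.92% in chow samples, overlapped only through KD sample 4 and chow sample 3.

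Nuclear genes that transcribe and package mitochondrial DNA showed no call (0 of 23 tested, median log2 fold change 0.10, 0 at an unadjusted p under 0.05, edgeR). DESeq2 and limma on FPKM also called 0, with 0 and 1 at an unadjusted p under 0.05, which 8.64% of all genes reached with edgeR, 10% with DESeq2 and 10.5% with limma. Tfam, which packages mitochondrial DNA and opens its promoters, had 61.9, 52.9, 49.2 and 49.9 CPM in KD samples and 54.2, 32.7, 43.3 and 41.1 CPM in chow samples, and its log2 fold change was 0.32 (SE 0.17, adjusted p = 0.649, edgeR). The diets overlapped through chow sample 1. Polrmt, the mitochondrial RNA polymerase, had a log2 fold change of -0.10 (SE 0.23), and its cofactor Tfb2m one of 0.12 (SE 0.27). Polg, the mitochondrial DNA polymerase, had -0.36 (SE 0.17), Tk2, a mitochondrial thymidine kinase, -0.25 (SE 0.13) and Ssbp1, the single-stranded DNA binding protein of mitochondria, 0.33 (SE 0.20).

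Of 35 tested genes of mitochondrial RNA processing, modification and decay, 0 were called by edgeR, DESeq2 or limma, and 3 had an unadjusted p under 0.05 with each tool. The share of all genes at that p was 8.64% with edgeR, 10% with DESeq2 and 10.5% with limma, so these counts are near the background. Mtpap, the poly(A) polymerase that adds tails to mitochondrial messenger RNAs, had 49.8, 47.1, 51.9 and 58.2 CPM in KD samples and 42.5, 38.6, 38.7 and 42.8 CPM in chow samples. All KD samples were above all chow samples, as for 3.30% of all genes tested, and the log2 fold change was 0.35 (SE 0.12, adjusted p = 0.401, edgeR). Mrm1, which methylates the large mitochondrial ribosomal RNA, had 39.8, 38.7, 34.9 and 31.3 CPM in KD samples and 53.0, 50.0, 45.7 and 41.4 CPM in chow samples. All KD samples were below all chow samples, as for 2.75% of all genes tested, and the log2 fold change was -0.39 (SE 0.14, adjusted p = 0.431, edgeR). Fastkd1, an RNA-binding protein of mitochondria, had a log2 fold change of 0.88 (SE 0.38) and Gtpbp3, which modifies mitochondrial tRNAs, 0.51 (SE 0.26). Lrpprc and Slirp, the pair of proteins that stabilises mitochondrial messenger RNAs, had -0.23 (SE 0.12) and 0.06 (SE 0.24).

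Among 16 tested regulators of mitochondrial biogenesis, 1 was called by edgeR, and by DESeq2 and limma as well, where 0.508%, 2.18% and 0.941% of all genes were called by these tools. The median log2 fold change of the list was -0.15, against 0.01 over all genes. Myc, a growth-promoting transcription factor, had 79.5, 112, 72.7 and 86.5 CPM in KD samples, against 162, 187, 130 and 157 CPM in chow samples. The groups did not overlap, and Myc fell by 0.86 on the log2 scale in KD (SE 0.15, adjusted p = 0.0463, edgeR). The call was lost when any 1 sample other than KD sample 2 was left out (adjusted p 0.0737 to 0.161, edgeR), without KD samples 3 and 4 together (0.503) and with the marker covariate (0.453). The log2 fold change in these fits was -0.77 to -0.94 with a sample left out, -0.73 without KD samples 3 and 4 and -0.81 with the covariate. Nrf1, an activator of nuclear genes for respiration, had a log2 fold change of 0.36 (SE 0.19), Gabpa, another such activator, -0.11 (SE 0.14), Esrra, an orphan nuclear receptor of the same programme, -0.36 (SE 0.20) and Sirt3, a mitochondrial deacetylase, -0.35 (SE 0.32). Ppargc1a, the coactivator that drives biogenesis in many tissues, had 4 counts in all KD samples together and 4 in all chow samples together, and was below the count filter.

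The nuclear partners of the mitochondrial subunits were not called either. edgeR called 0 of 36 complex I genes, 0 of 9 complex III genes, 0 of 12 complex IV genes and 0 of 17 ATP synthase genes, with 0, 2, 0 and 1 at an unadjusted p under 0.05 and median log2 fold changes of -0.01, -0.03, -0.0028 and -0.10. DESeq2 and limma also called 0 in each of these lists, with 0, 2, 0 and 1 (DESeq2) and 1, 2, 0 and 3 (limma) at an unadjusted p under 0.05, where 8.64% (edgeR), 10% (DESeq2) and 10.5% (limma) of all genes passed. Uqcrc2, a core subunit of complex III like mt-Cytb, had 162, 131, 147 and 166 CPM in KD samples and 110, 113, 128 and 131 CPM in chow samples. The diets overlapped narrowly, and the log2 fold change was 0.33 (SE 0.11, adjusted p = 0.359, edgeR). The genes of smallest p in the other complexes were Ndufb4 (complex I, log2 fold change -0.46, SE 0.25), Cox5a (complex IV, 0.14, SE 0.08) and Atp5g3 (ATP synthase, 0.22, SE 0.09).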

How the data were processed

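The authors deposited, per gene and sample, a table of estimated counts and a table of FPKM values. The submitters' processing notes name BWA, TopHat2, RSEM and DESeq2 and the build GRCm38, with no versions or roles. Counts that were not whole (5310 to 5802 genes in a sample) were rounded before any count test. Genes were kept by edgeR's filterByExpr (minimum count 10, minimum total 15), libraries were scaled with TMM factors, and KD was compared with chow by the quasi-likelihood F test (robust, two-sided, no term but diet). A Benjamini-Hochberg adjusted p under 0.05 was called. Each SE was computed from the F statistic. Software versions were edgeR 4.0.16, DESeq2 1.42.0 and limma 3.58.1 under R 4.3.3, and the fit was tested on simulated data. Library totals of 19796112 to 31926427 set the counting precision.

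Positions and sequences are from GENCODE M21 on GRCm38, matched by Ensembl identifier. Nuclear copies were found as transcripts that share 76 bases with a mitochondrial gene, the read length that the FPKM imply. The sources used here give no read length. FPKM with copies summed use the effective length of the mitochondrial gene. Counts were identical in no pair of samples. The labels state no pairing of samples by replicate number. The members and gene lists were chosen with earlier results of these data known. All 15 mitochondrial genes with counts are named, with up to 4 genes of smallest p from each list of transcription, processing and biogenesis genes, 1 from each list of nuclear subunits, 8 genes of interest, and nuclear copies with at least 10 counts.

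Alternatives were RLE factors, no composition factors, library sizes without mitochondrial genes, no filter, 5 CPM in 4 samples, a replicate block, DESeq2, limma on the log2 FPKM with 1 or 0.1 added, a marker covariate, leaving out each sample, and leaving out KD samples 3 and 4. Summing copies was added after seeing the data.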

Additional observations from a re-analysis of the deposited data

Results flagged for a closer look

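Each of these values lay far from the other 3 samples of its diet, with a gap of more than 0.829 of the diet's range. Chance flags about 5% of groups, and 102 groups of 4 were examined. Chow sample 1 stood highest for mt-Co1 with copies added, at 2733 CPM where the other chow samples had 2198 to 2288 CPM. It was also highest for the copies Gm29216 (1022 CPM, others 874 to 891 CPM), Gm28661 (43.3 CPM, others 0 to 2.29 CPM), Gm28437 (40.5 CPM, others 0.0947 to 6.82 CPM) and Gm10222 (6.61 CPM, others at 0). Among KD samples, sample 1 was highest for Gm28437 at 22.8 CPM, where the others had 0.0926 to 0.113 CPM. KD sample 3 had 22.6 CPM of Gm28438, which was at 0 in the other KD samples. KD sample 2 had a ratio of mt-Nd5 to mt-Nd1 of 0.332, where the other KD samples had 0.295 to 0.301.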

How the results depend on the processing

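The count of 0 called mitochondrial genes held under every alternative run, and the lowest adjusted p of a mitochondrial gene was 0.0650 (mt-Nd4l). The count over all genes, 68, was 108 with the 5 CPM filter, 12 with the replicate block, 292 with DESeq2, 126 and 119 with limma on FPKM plus 1 and plus 0.1, 4 without KD samples 3 and 4, 9 with the marker covariate, and 12 to 44 with each sample left out. After each gene's diet mean was subtracted, the remaining deviations of same-numbered samples correlated at -0.115, 0.067, -0.105 and 0.050. Those of differently numbered samples correlated at -0.161 to 0.163. With 4 samples per diet, this cannot settle whether the replicate numbers pair samples. Directions without a call turned as follows. Without KD samples 3 and 4, log2 fold changes were -0.29 for mt-Rnr2, -0.19 for mt-Co1, -0.16 for mt-Co3, -0.012 for mt-Nd5, -0.12 for mt-Nd6, 0.23 for Polrmt and -0.19 for Slirp. With the covariate they were -0.12 for mt-Rnr2, -0.12 for mt-Co1, -0.067 for mt-Co3, -0.046 for mt-Nd6, 0.17 for Sirt3, 0.10 for Polrmt and -0.055 for Slirp. Gabpa was at 0.028 and 0.029 in the limma fits with 1 and 0.1 added, and mt-Atp6 at 0.070 with copies summed. With each sample left out, values ran from -0.30 to 0.073 for mt-Rnr1, -0.12 to 0.21 for mt-Rnr2, -0.26 to 0.042 for mt-Nd2, -0.015 to 0.23 for mt-Co1, -0.15 to 0.13 for mt-Atp8, -0.014 to 0.21 for mt-Nd6, -0.32 to 0.05 for Polrmt and -0.13 to 0.16 for Slirp. The mitochondrial share of counts, KD minus chow, was 0.0265 percentage points and ran from -0.0378 to 0.109 with each sample left out, and was -0.136 without KD samples 3 and 4. Myc lost its call in 9 alternatives and kept its direction in all. The cause of these changes was not tested.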
